A study of Homo sapiens with 19 samples.

Results

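The transcriptome of EZH2-/-/EZH1-/- H1 cells was compared with that of wild-type (WT) H1 cells, an established human embryonic stem cell (hESC) line, to describe RNA levels once both catalytic subunits of polycomb repressive complex 2 (PRC2) had been targeted in the same cells. The comparison took the 4 RNA-seq samples that the labels place in these groups, 2 of EZH2-/-/EZH1-/- H1 and 2 of WT H1, out of 19 samples in all. The other samples were single knockouts of EZH1, EZH2, EED or SUZ12 in H1 and an inducible EED line, of which the EED-/- and SUZ12-/- H1 samples were used for direct contrasts. All lines were kept in the hESC medium mTeSR1 on matrigel. The knockouts were made with CRISPR/Cas9 and a targeting vector that replaced a critical domain with a drug-resistance cassette, and for the double knockout a single-knockout line had its cassette removed with Cre before the other gene was targeted. The study describes these cells as differentiating spontaneously and as impossible to maintain. The labels of the pair of EZH2-/-/EZH1-/- H1 samples differ only in the suffixes DK1 and DK2, whose meaning is not given, and they are called sample 1 and sample 2 here. The study followed more than 1 clone of each knockout, but the sources used here do not tie these samples to particular clones or cultures, so the p-values measure only the spread between these samples, which may be technical.

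PRC2 methylates lysine 27 of histone H3. Its trimethylated form, H3K27me3, marks promoters of developmental regulators, many of them rich in CpG, and goes with low transcription in pluripotent cells, where HOX genes and lineage transcription factors are classic targets. EZH1 and EZH2 are the alternative methyltransferase subunits, EED and SUZ12 are core partners of both, and PRC1 is the companion complex that reads the mark through its CBX subunits. The gene groups below are therefore ordered from these complexes through the pluripotency factors to the targets, the lineages and the signalling ligands.

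Values were TPM, in which transcript counts are divided by transcript length and brought to a common sum, so the depth is unknown and the precision rests on the replicates. A gene was tested when 2 or more of the 4 samples had a TPM of 1 or higher, which left 16642 of 33382 genes. Differences are given as log2(TPM + 1) of EZH2-/-/EZH1-/- H1 minus WT H1 with a standard error (SE, n = 2 against 2), a scale on which the fold change of a weakly expressed gene is understated. A gene is said to have risen or fallen when its adjusted p in limma (Benjamini-Hochberg) was at most 1% and its estimated fold change at least 3.

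The double-knockout replicates differed from one another more than those of any other line. The median absolute difference between the samples of a line was 0.505 on the log2(TPM + 1) scale in EZH2-/-/EZH1-/- H1 over the 19100 genes that reached 1 TPM in 2 or more of the 12 samples of the 6 lines, against 0.163 in WT H1 and 0.128 to 0.36 in the other knockouts. A difference above 1 was found for 20.7% of these genes in EZH2-/-/EZH1-/- H1 and for 1.41% in WT H1. Sample 1 stood nearer to a sample of another genotype than to its own replicate. Its Spearman correlation across genes was 0.97 with EED-/- H1 sample 2, 0.944 with EED-/- H1 sample 1 and 0.935 with EZH2-/-/EZH1-/- H1 sample 2. Sample 2 correlated at 0.917 and 0.933 with EED-/- H1, and its correlations with SUZ12-/- H1 (0.878 with both) and with WT H1 (0.775 and 0.779) were lower than those of sample 1 (0.925 with both, and 0.805 and 0.807). These correlations are descriptions, since genes are not replicates and all samples share the same TPM scale.

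The difference between the samples moved with transcript length. Protein-coding genes were grouped by exon length into 5 bins of equal size. The median of sample 1 minus sample 2 on the log2(TPM + 1) scale was -0.11 in the bin of the shortest genes, then 0.20, 0.39 and 0.53, and 0.67 in the bin of the longest, whereas between the WT H1 samples it stayed between -0.01 and 0. The EZH2-/- H1 samples also differed with length, by up to 0.37 in the bin of the longest genes. Ribosomal protein genes, which have short transcripts, made up 14.3% of TPM in sample 1 and 20.4% in sample 2, against 21.7% and 20.9% in WT H1. The part of length in the differences between EZH2-/-/EZH1-/- H1 and WT H1 was not tested for single genes, but a version of the comparison levelled by length is given beside the main counts.

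**Figure D1:**
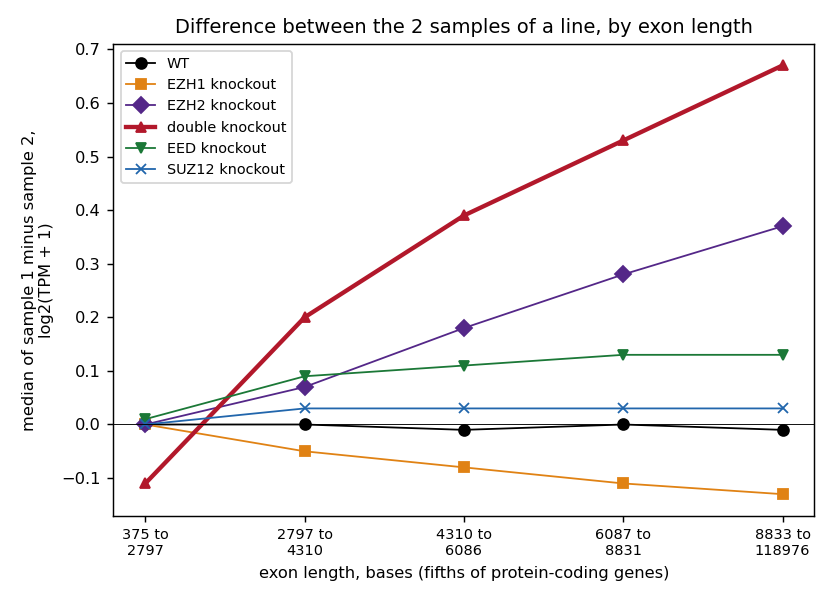
Median difference between sample 1 and sample 2 of each line on the log2(TPM + 1) scale (y axis) against 5 bins of genes by exon length (x axis, shortest to longest, protein-coding genes). Each line of the plot is one genotype with 2 samples; EZH2-/-/EZH1-/- H1 runs from -0.11 to 0.67, while WT H1 stays near 0.

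Promoters of genes described below are shown because density of CpG is the sequence property most often linked to PRC2 targets. The sequences are from RefSeq on GRCh38.p14, on the plus strand, 250 bases before to 50 bases after the RefSeq start of the gene, with each CG in capitals (the motif CG reads the same on both strands). HOXD10 (chr2:176116528-176116827) and GATA6 (chr18:22169339-22169638) encode a body-axis factor and an endoderm factor and were at or near 0 TPM in WT H1, and NANOG (chr12:7789152-7789451) encodes a pluripotency factor that was abundant in WT H1. GENCODE places an earlier start 7988 bases upstream for HOXD10 and 1608 bases upstream for NANOG, and these starts are not shown.
HOXD10: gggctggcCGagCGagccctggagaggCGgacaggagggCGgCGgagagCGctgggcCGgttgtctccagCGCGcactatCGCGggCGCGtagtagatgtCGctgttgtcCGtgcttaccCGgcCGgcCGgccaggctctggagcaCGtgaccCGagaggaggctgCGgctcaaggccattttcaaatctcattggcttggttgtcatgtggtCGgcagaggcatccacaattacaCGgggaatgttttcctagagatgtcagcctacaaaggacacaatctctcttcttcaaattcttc
GATA6: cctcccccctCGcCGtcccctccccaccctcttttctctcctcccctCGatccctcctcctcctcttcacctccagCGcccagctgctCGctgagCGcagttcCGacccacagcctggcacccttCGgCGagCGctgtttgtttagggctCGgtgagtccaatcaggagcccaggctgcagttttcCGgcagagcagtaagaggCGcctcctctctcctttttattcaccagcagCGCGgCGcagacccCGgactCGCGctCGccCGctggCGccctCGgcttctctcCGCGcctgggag
NANOG: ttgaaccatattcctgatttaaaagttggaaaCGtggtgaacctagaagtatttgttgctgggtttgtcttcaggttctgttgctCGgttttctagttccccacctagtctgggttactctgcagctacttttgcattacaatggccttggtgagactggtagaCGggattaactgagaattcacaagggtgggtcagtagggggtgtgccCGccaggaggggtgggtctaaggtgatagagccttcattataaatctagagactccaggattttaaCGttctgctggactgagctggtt
The HOXD10 window held 23 CG and the GATA6 window 25, more than 64.2% and 68.0% of the 35116 promoters in the table. The NANOG window held 5, more than 29.6% of promoters. The median promoter held 14, and 96% of promoters held at least 1. Over whole groups the order was different. A CpG-rich promoter (at least 1 start with observed over expected CpG of at least 0.6 and a GC share of at least 0.5) was found for 72.4% of 955 genes that rose, 77.6% of 397 that fell and 84.2% of 11025 that did neither, so these windows do not stand for the genes that rose and fell. The shares were 74.8%, 81.1% and 85.9% over genes with a window within 500 bases of the RefSeq gene start.

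In the comparison, 1334 genes rose in EZH2-/-/EZH1-/- H1, 8.02% of the genes tested, and 574 fell, 3.45%. In bulk RNA, fewer cells that express a gene and less RNA per cell cannot be told apart. In every gene called, both EZH2-/-/EZH1-/- H1 samples lay on the same side of both WT H1 samples, an arrangement found for 41.6% of tested genes above WT H1 and 31.0% below it. Of the genes that rose, 583 had passed the filter through the EZH2-/-/EZH1-/- H1 samples alone and 131 were listed at 0 in both WT H1 samples, while 683 had a TPM of at least 1 in both WT H1 samples. The median log2 difference of the rises was 3.0 in sample 1 and 2.84 in sample 2, and that of the falls was -2.35 and -2.66. Over all tested genes the median log2 difference was 0.145, with 0.307 in sample 1 and 0.006 in sample 2, and rescaling by median ratios set it to 0.096. Across genes, the differences of sample 1 and sample 2 from the WT H1 mean correlated at a Pearson r of 0.871, a description, since both share the WT H1 mean.

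The counts depended on which samples entered the fit. Without WT H1 sample 1 there were 396 rises and 115 falls, and without WT H1 sample 2 there were 372 and 108. Without EZH2-/-/EZH1-/- H1 sample 1 there were 1509 and 1255, and without its sample 2 there were 1712 and 567. After levelling each sample by exon length there were 1679 rises and 1203 falls, which included 1260 of the 1334 and 571 of the 574.

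**Figure D2:**
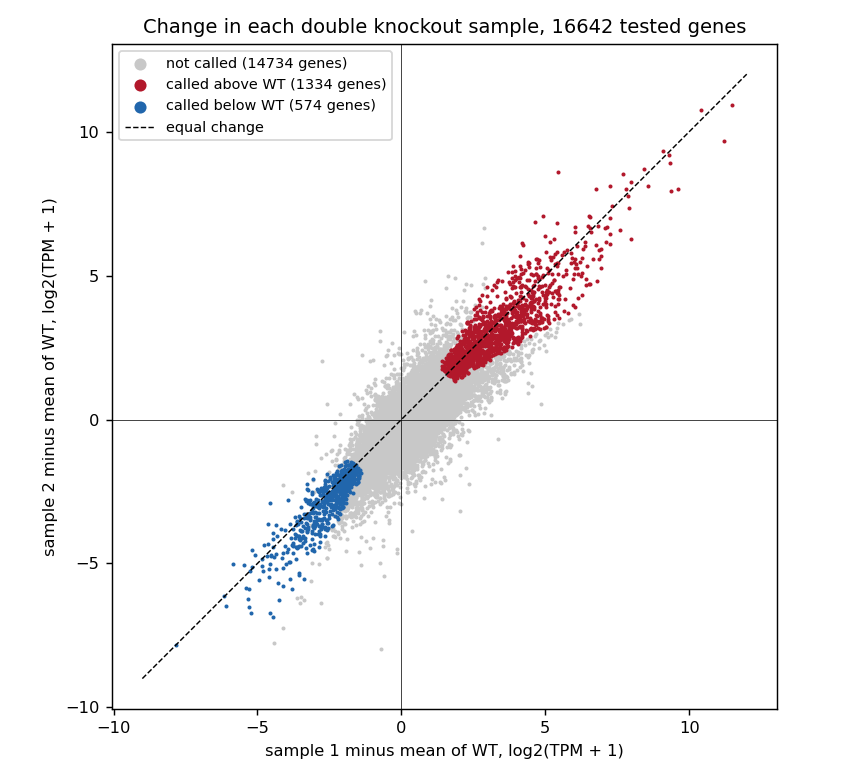
Log2(TPM + 1) of EZH2-/-/EZH1-/- H1 sample 1 (x axis) and sample 2 (y axis) minus the WT H1 mean, with 1 point per tested gene; genes that rose and fell are coloured. The 1334 rises and 574 falls lie on the same side of 0 in both samples, and 163 rises and 50 falls differ by more than 1 between the samples.

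The targeted genes were examined first. EZH1 (chr17:42700275-42745049 on GRCh38) was at 13.7 and 14.3 TPM in WT H1 and 9.37 and 6.78 TPM in EZH2-/-/EZH1-/- H1, a log2 difference of -0.74 ± 0.32 (SE, adjusted p = 0.126). EZH2 (chr7:148807257-148884321) was at 54.5 and 58.9 TPM in WT H1 and 31.3 and 20.0 TPM in EZH2-/-/EZH1-/- H1, a log2 difference of -1.15 ± 0.30 (SE, adjusted p = 0.0362). Both EZH2-/-/EZH1-/- H1 samples lay below both WT H1 samples for each gene, but neither gene met the threshold. A TPM summed over a whole gene does not show the removal of a domain, so the RNA neither checks nor contradicts the genotype. EZH2 RNA was also low in lines in which it had not been targeted, at 18.7 and 33.1 TPM in EED-/- H1 and 16.9 and 13.96 TPM in SUZ12-/- H1.

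Among the 14 subunits and cofactors of PRC2, 1 rose and 1 fell. JARID2, a DNA-binding cofactor of PRC2, fell from 119 and 106 TPM to 29.0 and 14.2 TPM, a log2 difference of -2.41 ± 0.37 (SE). C17orf96 (EPOP), which belongs to another form of the complex, rose from 1.44 and 1.62 TPM to 15.2 and 11.1 TPM, a log2 difference of 2.47 ± 0.33 (SE). The core subunit EED was at 17.3 and 22.0 TPM in WT H1 and 21.5 and 23.2 TPM in EZH2-/-/EZH1-/- H1, and SUZ12 was at 25.2 and 27.9 TPM against 18.6 and 12.6 TPM, and neither passed. The median log2 difference of the 13 tested genes was -0.75. The call on JARID2 was lost without either WT H1 sample, as was that on C17orf96.

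The 22 PRC1 genes moved in opposite directions within subunit families. PHC1, a polyhomeotic subunit abundant in WT H1, fell from 698 and 596 TPM to 53.4 and 14.1 TPM, a log2 difference of -4.49 ± 0.61 (SE), while its paralog PHC2 rose from 6.93 and 5.07 TPM to 89.0 and 76.7 TPM, a log2 difference of 3.59 ± 0.28 (SE). The reader subunit CBX8 (0.69 and 0.39 TPM against 8.49 and 8.07 TPM) rose, and CBX2, another reader, at 61.9 and 60.7 TPM against 26.8 and 23.4 TPM, missed the threshold (adjusted p = 0.014). CBX8 had passed the filter through the EZH2-/-/EZH1-/- H1 samples alone. YAF2 and BMI1 also rose. BMI1 was at 2.12 and 2.99 TPM in WT H1 and 45.4 and 24.7 TPM in EZH2-/-/EZH1-/- H1, but it shares exons with the readthrough gene COMMD3-BMI1, which was at 23.2 TPM in sample 1 and listed at 0 in sample 2, so the split of reads between them is uncertain. In all, 5 of 22 rose and 1 fell, with a median log2 difference of 0.15, close to the 0.145 of all tested genes. Without WT H1 sample 1 or sample 2, 1 rise was called.

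Of the enzymes that act on H3K27me3 or DNA methylation, KDM6B, a demethylase of H3K27, rose from 0.66 and 1.24 TPM to 35.5 and 22.5 TPM, a log2 difference of 3.93 ± 0.38 (SE). The paralog KDM6A was at 54.0 and 42.9 TPM in WT H1 and 53.4 and 21.8 TPM in EZH2-/-/EZH1-/- H1 and did not pass. DNMT3B, a de novo DNA methyltransferase that marks hESCs, fell from 846 and 840.4 TPM to 21.8 and 6.92 TPM, a log2 difference of -5.97 ± 0.51 (SE). DNMT1, UHRF1 and TET1 were lower in both EZH2-/-/EZH1-/- H1 samples without meeting the threshold (adjusted p = 0.0145, 0.0314 and 0.0352). KDM6B and DNMT3B were the only genes of this list of 10 to pass, 9 having been tested, and KDM6B was not called without WT H1 sample 1.

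The cells are labelled human embryonic stem cells, and the pluripotency markers were much lower in EZH2-/-/EZH1-/- H1. Of 22 markers, 13 fell and 0 rose, with a median log2 difference of -2.83, and the summed TPM of the list was 6908 and 7165 in WT H1 against 1095 and 518 in EZH2-/-/EZH1-/- H1. POU5F1, the gene of the core factor OCT4, fell from 2531 and 2428 TPM to 123 and 149.8 TPM, a log2 difference of -4.18 ± 0.20 (SE, adjusted p = 0.00157). It remained far above 0 in both samples, which differed little. NANOG fell from 140.4 and 97.5 TPM to 8.10 and 5.80 TPM, a log2 difference of -3.91 ± 0.31 (SE). SOX2, also a neural factor, fell from 165 and 219 TPM to 7.09 and 24.5 TPM, and its call was lost without WT H1 sample 2.

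L1TD1, TDGF1, DPPA4 and ZSCAN10 had the steepest falls of this list, with log2 differences between -4.38 and -5.62. TERT, the catalytic subunit of telomerase, was at 14.4 and 11.9 TPM in WT H1 and 0.36 and 0.46 TPM in EZH2-/-/EZH1-/- H1. Members that did not pass included SALL4 (57.8 and 65.8 TPM against 57.3 and 28.8 TPM) and the NODAL pathway genes NODAL and LEFTY2, which were higher in both EZH2-/-/EZH1-/- H1 samples. PODXL, a surface sialomucin, separated the replicates: it was at 588 and 540.2 TPM in WT H1, 374 TPM in sample 1 and 11.9 TPM in sample 2. The count of falls was 7 without WT H1 sample 1 or sample 2, 16 without EZH2-/-/EZH1-/- H1 sample 1 and 13 without its sample 2.

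Genes of DNA replication and mitosis were lower as a group. Of 17 genes, 10 fell and 0 rose, with a median log2 difference of -3.01. Among the replication genes, MCM5, a subunit of the replicative helicase, fell from 231 and 227 TPM to 24.3 and 19.4 TPM, a log2 difference of -3.34 ± 0.22 (SE), and PCNA, the polymerase clamp, fell from 415 and 440.1 TPM to 98.2 and 143 TPM. The samples stood far apart in MKI67. This gene, which encodes the proliferation antigen Ki-67, was at 42.5 and 46.2 TPM in WT H1 and 11.3 and 1.57 TPM in EZH2-/-/EZH1-/- H1 and did not pass (adjusted p = 0.0332). Of the 17 genes, 15 were higher in sample 1 than in sample 2, as were 67.8% of all tested genes, and TYMS, a thymidylate synthesis enzyme, was at 98.5 and 102 TPM in WT H1 and 91.3 and 101 TPM in EZH2-/-/EZH1-/- H1. The count of falls was 3 without WT H1 sample 1 or sample 2, 15 without EZH2-/-/EZH1-/- H1 sample 1 and 14 without its sample 2.

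Of 7 inhibitors of cyclin-dependent kinases, 4 rose. CDKN2A (chr9:21967752-21995301), which encodes p16INK4A and ARF, was at 0.44 and 0.77 TPM in WT H1 and 335 and 586 TPM in EZH2-/-/EZH1-/- H1, a log2 difference of 8.12 ± 0.36 (SE, adjusted p = 0.00154). Its neighbour CDKN2B (chr9:22002903-22009305), which encodes p15INK4B, was at 0.13 and 0.1 TPM against 258 and 243 TPM, a log2 difference of 7.82 ± 0.27 (SE). CDKN2A and CDKN2B had passed the filter through the EZH2-/-/EZH1-/- H1 samples alone, so the filter fixed their direction and the TPM values carry the description. CDKN1A, the p21 gene, rose from 6.15 and 21.4 TPM to 631 and 716 TPM, and CDKN1C, the imprinted p57 gene, rose from 7.93 and 5.42 TPM to 134 and 112 TPM. These 4 inhibitors were far apart between the groups, although the call on CDKN1A was lost without either EZH2-/-/EZH1-/- H1 sample, while CDKN1B, the p27 gene, overlapped at 16.7 and 15.8 TPM in WT H1 and 21.2 and 15.8 TPM in EZH2-/-/EZH1-/- H1. CDKN2D was at 3.51 and 4.93 TPM against 8.59 and 11.0 TPM without passing, and CDKN2C stayed below 1 TPM. CCND2, a cyclin of the D type, also rose, so that 5 of the 12 genes on this list rose and 0 fell, with a median log2 difference of 2.82, and the count stayed between 4 and 6 when any sample was left out.

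HOX genes, which specify position along the body axis, were near 0 in WT H1 and, for most members, expressed in EZH2-/-/EZH1-/- H1 in all 4 clusters. Of the 39 genes, 29 rose, 6 were tested without meeting the threshold and 4 did not pass the filter. In WT H1 the highest TPM of any HOX gene was 0.19, and the 35 tested genes had passed the filter through the EZH2-/-/EZH1-/- H1 samples alone, so their direction was fixed by the filter and the TPM values carry the description. The summed TPM of the HOXA cluster was 0 and 0.06 in WT H1 and 146.6 and 133.6 in EZH2-/-/EZH1-/- H1. The HOXB cluster summed to 189.7 and 148.6 TPM in EZH2-/-/EZH1-/- H1, the HOXC cluster to 70.8 and 100.2 TPM and the HOXD cluster to 134.3 and 205.2 TPM, with at most 0.25 TPM per cluster in WT H1. The order of the samples thus differed by cluster: sample 1 was higher in HOXA and HOXB, and sample 2 in HOXC and HOXD.

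Levels differed along the clusters. HOXA13 and HOXD13, of the most posterior group, were listed at 0 in WT H1 and were at 26.8 and 9.23 TPM and 20.6 and 27.5 TPM in EZH2-/-/EZH1-/- H1. HOXD10, whose promoter is printed above, was listed at 0 in WT H1 and was at 39.7 and 41.5 TPM. Of the most anterior group, HOXD1 was at 4.23 and 3.88 TPM, while HOXB1, at 0.07 and 0.08 TPM, stayed near 0 as in WT H1. The samples differed severalfold in some members with no common order: HOXC9 was at 8.25 and 24.7 TPM, HOXD9 at 16.2 and 50.1 TPM, HOXD11 at 38.1 and 76.1 TPM and HOXD12 at 7.03 and 1.53 TPM. Without WT H1 sample 1 or sample 2, 13 of the HOX genes were called, without EZH2-/-/EZH1-/- H1 sample 1 there were 30 and without its sample 2 there were 33.

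**Figure D3:**
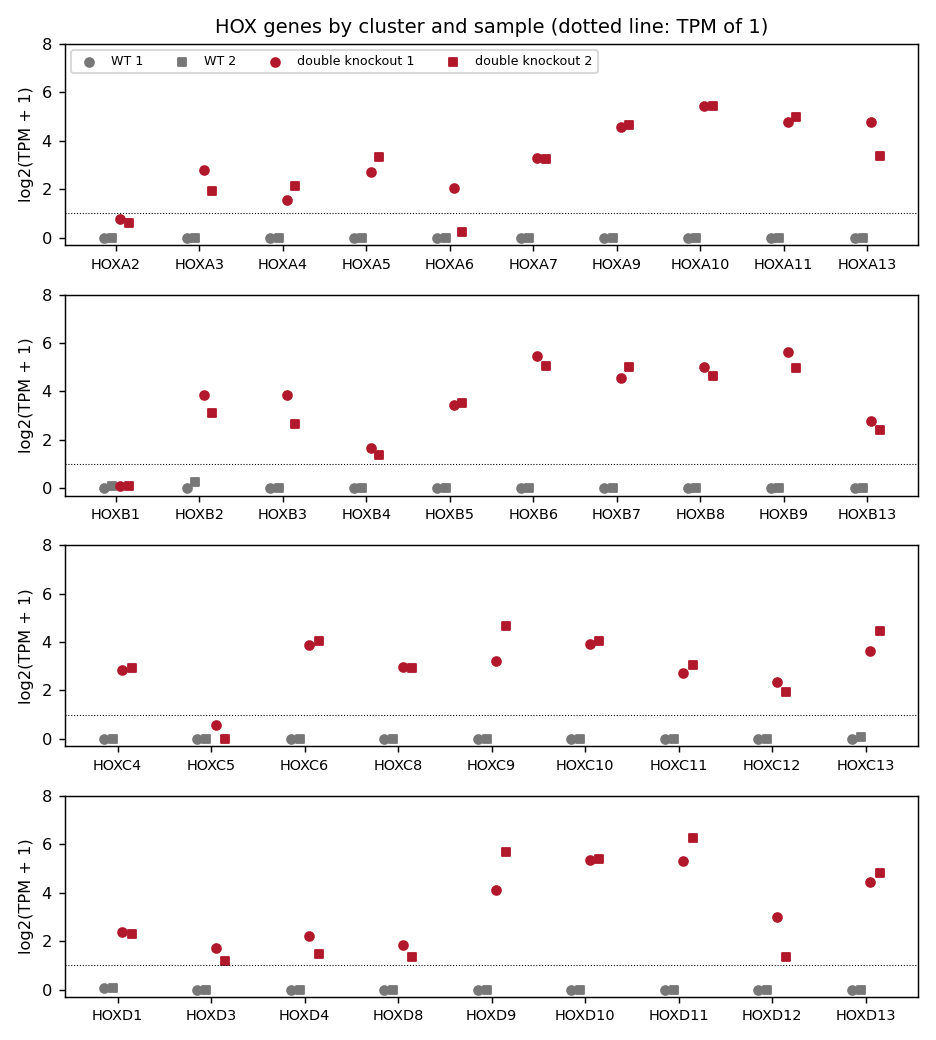
TPM of HOX genes on the log2(TPM + 1) scale (y axis) by cluster and paralog number (x axis) in the 2 WT H1 and the 2 EZH2-/-/EZH1-/- H1 samples. WT H1 stays at 0.19 TPM or below for every gene plotted, and the EZH2-/-/EZH1-/- H1 points reach 76.1 TPM at HOXD11.

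Mesenchymal matrix genes rose widely. Of 22 genes, 18 rose and 0 fell, 3 of the 22 having passed the filter through the EZH2-/-/EZH1-/- H1 samples alone, with a median log2 difference of 4.93, the largest of the 26 lists at this pseudocount, and the list summed to 1396 and 1243 TPM in WT H1 against 31491 and 16649 TPM in EZH2-/-/EZH1-/- H1. FN1, the gene of fibronectin, rose from 50.5 and 60.4 TPM to 10941 and 5396 TPM, a log2 difference of 7.10 ± 0.37 (SE). COL3A1, a fibrillar collagen, was at 0.11 and 0.22 TPM in WT H1 and 2774 and 961 TPM in EZH2-/-/EZH1-/- H1, and the basement membrane collagen COL4A1 rose from 33.0 and 30.4 TPM to 1809 and 420.5 TPM. As in these genes, 20 of the 22 were higher in sample 1 than in sample 2, against 67.8% of all tested genes. The median difference between the samples moved with transcript length as described above, and the part of length in this count was not tested. The number of rises was 17 when any of the 4 samples was left out. With a pseudocount of 0.1 the median of this list was 5.04, below those of the cardiac (6.77), HOX (6.43), endoderm factor (5.82) and liver and yolk sac (5.3) lists, in which many genes were at or near 0 in WT H1. THY1, a surface protein of both fibroblasts and hESCs, was at 646 and 468 TPM in WT H1 and 144 and 50.1 TPM in EZH2-/-/EZH1-/- H1, lower in both samples without passing (adjusted p = 0.0168).

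Cardiac mesoderm genes rose as well, 11 of 18 with 0 falls, 14 tested and 9 of those through the EZH2-/-/EZH1-/- H1 samples alone. The list summed to 64.0 and 70.0 TPM in WT H1 and to 2063 and 2606 TPM in EZH2-/-/EZH1-/- H1. Transcription factors were at 0 or near it in WT H1. ISL1, a factor of cardiac progenitors, was at 0.04 and 0.24 TPM in WT H1 and 68.6 and 55.0 TPM in EZH2-/-/EZH1-/- H1, NKX2-5 was at 0.13 and 0.17 TPM against 32.6 and 27.7 TPM, and HAND1 and HAND2 were listed at 0 in WT H1 and were at 31.6 and 13.97 TPM and 29.0 and 15.4 TPM. Sarcomere genes were split. The atrial light chain MYL7 rose from 6.30 and 3.32 TPM to 371 and 579 TPM, a log2 difference of 6.37 ± 0.37 (SE), and cardiac actin ACTC1 rose from 30.6 and 37.6 TPM to 638 and 896 TPM. The cardiac myosin heavy chains MYH6 and MYH7, which define contracting cardiomyocytes, stayed at or below 0.26 TPM in all 4 samples. NPPB, the natriuretic peptide B gene, was at 0.33 and 0 TPM in WT H1 and 634 and 742 TPM in EZH2-/-/EZH1-/- H1, whereas NPPA was listed at 0 in 3 of the 4 samples and at 1.80 TPM in sample 2. The number of rises stayed between 9 and 12 when any sample was left out.

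Of 12 smooth muscle genes, 6 rose and 0 fell, with a median log2 difference of 1.78. ACTA2, smooth muscle actin, rose from 1.90 and 1.88 TPM to 989.7 and 1218 TPM, a log2 difference of 8.57 ± 0.23 (SE), and TAGLN, an actin-binding protein, rose from 340.5 and 283 TPM to 3154 and 3982 TPM. CNN1, calponin, rose from 28.1 and 32.8 TPM to 96.3 and 109.9 TPM, and LMOD1, the leiomodin of smooth muscle, rose from 1.04 and 1.30 TPM to 16.1 and 9.11 TPM. MYOCD, the cofactor myocardin, was at 1.11 and 1.19 TPM against 8.49 and 4.66 TPM without passing (adjusted p = 0.0217). MYL9 and TPM1 also rose. MYH11, the smooth muscle myosin heavy chain, was at 1.32 and 1.22 TPM in WT H1 and 1.27 and 0.93 TPM in EZH2-/-/EZH1-/- H1, and desmin (DES) was at 2.44 and 1.59 TPM against 2.21 and 3.20 TPM. The number of rises was 2 without WT H1 sample 1 or sample 2, 5 without EZH2-/-/EZH1-/- H1 sample 1 and 8 without its sample 2.

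Endoderm factors rose in 11 of 18 genes with 0 falls, and 11 of the 16 tested had passed through the EZH2-/-/EZH1-/- H1 samples alone. The list summed to 29.6 and 28.8 TPM in WT H1 and to 524 and 372 TPM in EZH2-/-/EZH1-/- H1. GATA4 was at 0.13 and 0.16 TPM in WT H1 and 124 and 75.2 TPM in EZH2-/-/EZH1-/- H1, GATA6, whose promoter is printed above, was at 0 and 0.03 TPM against 42.8 and 20.5 TPM, and SOX17 was at 0.05 and 0 TPM against 64.1 and 33.5 TPM. Sample 1 exceeded sample 2 in each of them, and in 14 of the 16 tested genes, against 67.8% of all tested genes. HNF4A, a hepatocyte and yolk sac regulator, was at 0.07 and 0 TPM in WT H1 and 33.8 and 11.7 TPM in EZH2-/-/EZH1-/- H1. CXCR4, a chemokine receptor of definitive endoderm and of many migrating cells, rose from 1.05 and 1.67 TPM to 59.5 and 111 TPM, with sample 2 higher. PDX1, the pancreas factor, was listed at 0 in WT H1 and was at 1.55 and 0.92 TPM. Other members went the other way. FOXA3 (18.6 and 18.5 TPM in WT H1 against 8.87 and 10.4 TPM), NR5A2 and ONECUT1 were lower in both EZH2-/-/EZH1-/- H1 samples without passing. Without WT H1 sample 1 or sample 2 there were 5 rises, and without either EZH2-/-/EZH1-/- H1 sample there were 10.

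Proteins secreted by liver and yolk sac were uneven. TTR, transthyretin, was listed at 0 in WT H1 and was at 1369 and 1746 TPM in EZH2-/-/EZH1-/- H1, and APOA1, the main protein of high-density lipoprotein, was at 0.55 and 0.25 TPM against 875 and 814 TPM. AFP, alpha-fetoprotein, rose from 10.2 and 14.3 TPM to 201 and 183 TPM, a log2 difference of 3.88 ± 0.26 (SE). Albumin (ALB) was at 0.36 and 0.08 TPM in WT H1 and only 1.91 and 1.37 TPM in EZH2-/-/EZH1-/- H1, and the transferrin gene TF stayed below 1 TPM throughout. The fibrinogen genes separated the replicates, with FGB at 35.5 TPM in sample 1 and 7.87 TPM in sample 2 and FGA at 22.4 and 1.24 TPM. In all, 8 of 20 rose and 0 fell, 13 of the 17 tested having passed through the EZH2-/-/EZH1-/- H1 samples alone, and the number was 5 without either WT H1 sample, 10 without EZH2-/-/EZH1-/- H1 sample 1 and 12 without its sample 2.

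Of 26 endothelial and blood genes, 11 rose and 0 fell, and 11 of 20 tested passed through the EZH2-/-/EZH1-/- H1 samples alone. The list summed to 184.4 and 199.1 TPM in WT H1 and to 968 and 538 TPM in EZH2-/-/EZH1-/- H1. CD34, an antigen of endothelial and blood progenitors, was at 0.53 and 0.5 TPM in WT H1 and 98.6 and 57.3 TPM in EZH2-/-/EZH1-/- H1, and LMO2, a partner of TAL1, rose from 2.34 and 1.27 TPM to 48.0 and 66.8 TPM. KDR, the VEGF receptor, was on both sides of WT H1: 50.9 and 66.1 TPM in WT H1, 79.6 TPM in sample 1 and 14.7 TPM in sample 2. Blood-restricted genes stayed low, with GATA1 and HBG1 listed at 0 in all 4 samples, PTPRC at most 1.46 TPM and HBE1 at most 0.49 TPM. The number of rises was 5 and 4 without WT H1 sample 1 and sample 2, and 10 and 12 without EZH2-/-/EZH1-/- H1 sample 1 and sample 2.

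Markers of other lineages were mixed. Of 17 trophoblast and amnion genes, 5 rose and 0 fell, and 4 of the 11 tested had passed the filter through the EZH2-/-/EZH1-/- H1 samples alone. Both EZH2-/-/EZH1-/- H1 samples lay above both WT H1 samples in 7 of the 11 and below them in 4, against 41.6% and 31.0% of all tested genes. Among the rises were GATA3 (0.07 and 0.22 TPM in WT H1 and 36.4 and 20.4 TPM in EZH2-/-/EZH1-/- H1) and KRT7, which rose from 13.6 and 13.0 TPM to 136 and 162 TPM. The syncytial and placental genes GCM1 and PSG4 stayed at or below 0.22 TPM, and CDX2 was at 18.0 and 3.70 TPM in EZH2-/-/EZH1-/- H1 without passing. Of 26 neural genes, 4 rose and 3 fell. PAX6, an eye and forebrain factor, was at 0.41 and 0.7 TPM in WT H1 and 21.9 and 24.5 TPM in EZH2-/-/EZH1-/- H1, and the other rises were ZIC1 (0.21 and 1.10 TPM against 31.6 and 17.9 TPM), DLX5 (listed at 0 against 25.6 and 29.5 TPM) and LHX2 (0.13 and 0.21 TPM against 4.04 and 5.27 TPM). PAX6, DLX5 and LHX2 had passed the filter through the EZH2-/-/EZH1-/- H1 samples alone. ZIC2, SOX3 and POU3F1, which hESCs also express, fell. Of the 26, 8 did not pass the filter, among them SOX1, NEUROG1 and NEUROG2, factors of neural progenitors, which stayed below 1 TPM. Of 13 primitive streak genes, 5 rose, to at most 11.2 TPM apart from EVX1, which was listed at 0 in WT H1 and was at 21.6 and 17.8 TPM in EZH2-/-/EZH1-/- H1. All 5 had passed through the EZH2-/-/EZH1-/- H1 samples alone, so the filter fixed their direction. The streak factor T (brachyury) was at 3.95 and 4.13 TPM and MIXL1 at 2.62 and 1.60 TPM. Of 11 kidney and intermediate mesoderm genes 4 rose, and of 9 surface ectoderm genes 1 did, GRHL3, with KRT5 at 6.19 TPM in sample 1 and listed at 0 in sample 2. These rises, too, were of genes that passed through the EZH2-/-/EZH1-/- H1 samples alone, as did 8 of the 9 kidney and 3 of the 4 surface ectoderm genes tested. Summed levels were 361 and 425 TPM in WT H1 against 895 and 876 TPM in EZH2-/-/EZH1-/- H1 for the trophoblast list and 649 and 749 TPM against 559 and 729 TPM for the neural list. The part of a mixture of cell types in these values was not tested. Without WT H1 sample 1 or sample 2, the streak and kidney lists each had 1 rise, the neural list had 1 and 3 rises and 0 falls, and the trophoblast list had 4 and 3 rises.

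The epithelial markers CDH1 and EPCAM and several mesenchymal markers were high together. The mesenchymal filament VIM rose from 231 and 352 TPM to 3766 and 4409 TPM, a log2 difference of 3.83 ± 0.26 (SE), the cadherin CDH2 rose from 21.4 and 17.4 TPM to 313 and 204 TPM, and TWIST1, a mesenchymal transcription factor, was at 0.2 and 0.14 TPM in WT H1 and 42.1 and 53.2 TPM in EZH2-/-/EZH1-/- H1. The epithelial cadherin CDH1 stayed at 116 and 123 TPM in WT H1 and 118 and 101 TPM in EZH2-/-/EZH1-/- H1, and EPCAM was at 207 and 279 TPM against 387 and 397 TPM. Both EZH2-/-/EZH1-/- H1 samples lay above both WT H1 samples in 10 of the 14 tested genes and below them in 1, against 41.6% and 31.0% of all tested genes. Of the 15 genes, 6 rose and 0 fell, 5 of the 14 tested having passed through the EZH2-/-/EZH1-/- H1 samples alone, and the number was between 4 and 8 when any sample was left out.

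Genes of BMP signalling, in which secreted ligands act through type I and type II receptors and SMAD proteins, were examined in the order of the pathway. Of 12 ligands, 4 rose and 0 fell, 6 of the 10 tested having passed the filter through the EZH2-/-/EZH1-/- H1 samples alone. BMP4 rose from 2.50 and 3.25 TPM to 293 and 121 TPM, a log2 difference of 5.62 ± 0.47 (SE), BMP2 rose from 1.51 and 1.79 TPM to 81.2 and 29.0 TPM, and BMP7 rose from 8.19 and 6.63 TPM to 69.0 and 81.7 TPM. BMP2 and BMP4 were higher in sample 1 and BMP7 in sample 2. BMP6 was at 1.70 and 0.82 TPM in WT H1 and 125 and 23.4 TPM in EZH2-/-/EZH1-/- H1 and missed the threshold (adjusted p = 0.0127). Of 11 receptors and SMADs, 3 rose, BMPR1B, BMPR2 and ACVRL1, and the median log2 difference of the list was 0.32. Of these 11, 3 had passed the filter through the EZH2-/-/EZH1-/- H1 samples alone. SMAD1, which carries the signal to the nucleus, was at 19.1 and 21.4 TPM in WT H1, 22.1 TPM in sample 1 and 4.28 TPM in sample 2.

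Known targets of BMP signalling differed in how far they changed, and whether they respond to the ligands in these cells was not tested. Of 10 targets and feedback inhibitors, 3 rose, with BAMBI, a pseudoreceptor, rising from 24.6 and 20.5 TPM to 508 and 464 TPM and the homeobox genes MSX1 and MSX2 reaching 46.1 and 33.0 TPM and 71.0 and 40.1 TPM. Of the 10, 2 had passed the filter through the EZH2-/-/EZH1-/- H1 samples alone. The immediate targets ID1 (132 and 102 TPM against 348 and 243 TPM) and ID3 (154 and 114 TPM against 216 and 125 TPM) did not pass. Of 11 secreted antagonists of BMP and activin, 5 rose, and 6 of the 11 had passed through the EZH2-/-/EZH1-/- H1 samples alone. FST, follistatin, rose from 4.74 and 7.99 TPM to 301 and 824 TPM, a log2 difference of 6.12 ± 0.53 (SE), and NOG, noggin, was at 0.17 and 0.18 TPM against 48.6 and 13.5 TPM. All 10 targets were higher in sample 1 than in sample 2, in contrast to FST, compared with 67.8% of all tested genes. Without either WT H1 sample there were 3 rises among the targets, 1 among the antagonists and 0 among the receptors and SMADs, and without EZH2-/-/EZH1-/- H1 sample 1 or sample 2 there were 7 among the ligands.

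TGF-beta ligands rose together. TGFB1 rose from 5.28 and 6.25 TPM to 152 and 153 TPM, a log2 difference of 4.51 ± 0.24 (SE), TGFB2 was at 0.53 and 0.48 TPM against 88.1 and 64.7 TPM, and TGFB3 at 0.79 and 0.41 TPM against 19.6 and 22.7 TPM. INHBA, the activin A subunit, and SMAD3 also rose, which made 5 of 14 genes, 4 of the 12 tested having passed through the EZH2-/-/EZH1-/- H1 samples alone, while the receptors TGFBR1 (17.2 and 19.1 TPM against 67.9 and 42.5 TPM) and TGFBR2 (6.20 and 5.64 TPM against 23.9 and 13.1 TPM) did not pass. Of 17 WNT ligands, 6 rose, and 11 of the 12 tested had passed through the EZH2-/-/EZH1-/- H1 samples alone. WNT5A, a noncanonical ligand, rose from 1.06 and 0.8 TPM to 76.5 and 28.7 TPM, and WNT2 and WNT6 were listed at 0 in WT H1 and were at 26.1 and 42.0 TPM and 20.3 and 43.1 TPM. WNT1 was listed at 0 in all 4 samples, and WNT3A, a canonical ligand, stayed below 1 TPM. Without WT H1 sample 1 or sample 2 there were 3 rises in the TGF-beta list and 4 in the WNT list, and without EZH2-/-/EZH1-/- H1 sample 2 there were 8 in each.

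Of 12 housekeeping genes, HPRT1, a purine salvage enzyme, fell from 59.6 and 53.0 TPM to 6.18 and 5.17 TPM, a log2 difference of -3.10 ± 0.28 (SE), a call lost without either WT H1 sample. GAPDH was at 7195 and 7867 TPM in WT H1 and 2857 and 2925 TPM in EZH2-/-/EZH1-/- H1, a change under the fold of 3, and ACTB was at 4139.8 and 4079 TPM against 4524 and 4211 TPM. The median log2 difference of the list was -0.54.

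The largest rises and falls over all tested genes were then taken. CST1 (chr20:23747562-23751268), a secreted cysteine protease inhibitor, had the largest rise, from 1.35 and 2.60 TPM to 8377 and 5629.9 TPM, a log2 difference of 11.21 ± 0.32 (SE, adjusted p = 0.000736). CST4, a close paralog that may share reads with CST1, was listed at 0 in WT H1 and was at 252 and 306 TPM. The 15 largest rises also held the growth factor IGF2 and its binding proteins IGFBP5 and IGFBP7. IGF2 was at 0.38 and 0.27 TPM in WT H1 and 848 and 633 TPM in EZH2-/-/EZH1-/- H1, and ANKRD1, a stretch-responsive cofactor of muscle, was at 0.06 and 0.06 TPM against 821 and 269 TPM. ANKRD1 and IGFBP5 were several times higher in sample 1 than in sample 2, whereas NPPB and ACTA2 were higher in sample 2. The remainder of the 15, TTR, COL3A1, APOA1, APOA2, NPPB, ACTA2, LUM, CDKN2A and CDKN2B, belonged to the groups above. All of the 15 but CST1 and ACTA2 had passed the filter through the EZH2-/-/EZH1-/- H1 samples alone, so the filter fixed their direction.

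Of the 10 largest falls, 6 were protein-coding genes and 4 were annotated long noncoding RNAs. POLR3G, a subunit of RNA polymerase III that pluripotent cells use, fell from 284 and 233 TPM to 2.81 and 1.91 TPM, a log2 difference of -6.28 ± 0.28 (SE, adjusted p = 0.00154). USP44, a deubiquitinase, fell from 117 and 109 TPM to 1.85 and 0.53 TPM, and LCK, a tyrosine kinase best known in T cells, fell from 79.3 and 62.3 TPM to 0.8 and 0.2 TPM. LINC00678 fell from 775 and 759 TPM to 31.8 and 6.34 TPM, with sample 1 nearer to WT H1. The noncoding RNAs RP11-386G11.10 and RP11-138I1.4 were listed at 0 in both EZH2-/-/EZH1-/- H1 samples after 279 and 186 TPM and 58.0 and 84.0 TPM in WT H1.

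Genes that separated the EZH2-/-/EZH1-/- H1 samples from one another were described without a test. Of the tested genes, 3500 differed by more than 1 on the log2(TPM + 1) scale between these samples, against 212 between the WT H1 samples, and 67.8% were higher in sample 1. Among the 8 genes highest in sample 1 relative to sample 2, PODXL and HERC3, a ubiquitin ligase, had exon lengths of 6893 and 6969 bases. HERC3 was at 0.92 and 1.38 TPM in WT H1, 60.7 TPM in sample 1 and 2.08 TPM in sample 2. The others of the 8 were shorter, at 183 to 2713 bases, and several were noncoding or readthrough annotations. The part of length in these extremes was not tested. Among the 8 genes highest in sample 2, CRYGS, a lens crystallin, was at 0.72 and 0.9 TPM in WT H1, 12.1 TPM in sample 1 and 179 TPM in sample 2, and the noncoding PGM5-AS1 was listed at 0 in WT H1 and was at 6.01 TPM and 69.0 TPM. RNASEK-C17orf49 is a readthrough annotation, and its value of 60.2 TPM in sample 2 shares exons with its neighbours.

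The EED-/- and SUZ12-/- H1 lines were the nearest other knockouts, and they were contrasted with EZH2-/-/EZH1-/- H1 directly in a fit of 12 samples from 6 lines. This fit shares its estimate of the spread among lines, while the EZH2-/-/EZH1-/- H1 samples were the furthest apart. Its SEs and p-values therefore understate the spread of EZH2-/-/EZH1-/- H1. Against EED-/- H1, 6 genes were higher in EZH2-/-/EZH1-/- H1, 0.0314% of 19100 tested, and 11 were lower, 0.0576%. POU5F1 was the clearest. It was at 123 and 149.8 TPM in EZH2-/-/EZH1-/- H1 and 5.27 and 3.62 TPM in EED-/- H1, a log2 difference of 4.67 ± 0.27 (SE, n = 2 against 2, adjusted p = 6.72e-05), and it was at 91.0 and 47.0 TPM in SUZ12-/- H1. No other of the 22 pluripotency genes met the threshold against EED-/- H1, although NANOG (8.1 and 5.8 TPM against 0.6 and 0.37 TPM, adjusted p = 0.0118) and ZSCAN10 (4.03 and 2.66 TPM against 0.25 and 0.07 TPM, adjusted p = 0.0152) came close. The endothelial genes CD93 and ESM1 were lower in EZH2-/-/EZH1-/- H1, with CD93 at 5.71 and 2.54 TPM against 60.2 and 30.9 TPM in EED-/- H1 and ESM1 at 16.3 and 11.1 TPM against 140.8 and 71.9 TPM. In SUZ12-/- H1 they were low as well, at 6.44 and 5.10 TPM and 2.33 and 1.45 TPM. POU5F1 still passed when any 1 of the 4 samples was left out, but not in a fit of these 4 samples alone, and the counts rested on single samples. Without EZH2-/-/EZH1-/- H1 sample 1 there were 106 higher and 632 lower genes, without its sample 2 there were 1 and 0, without EED-/- H1 sample 1 there were 2 and 1, and without EED-/- H1 sample 2 there were 23 and 91.

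Against SUZ12-/- H1, 217 genes were higher in EZH2-/-/EZH1-/- H1, 1.14%, and 635 were lower, 3.32%. In a fit of the 4 samples of these lines alone, 2 were higher and 22 lower. Secreted liver and yolk sac proteins made the difference plainest, since 17 of the 20 genes were lower in EZH2-/-/EZH1-/- H1 than in SUZ12-/- H1, with a median log2 difference of -4.86. AHSG, a fetal plasma glycoprotein, was at 0 and 0.3 TPM in EZH2-/-/EZH1-/- H1 and 673 and 699.6 TPM in SUZ12-/- H1, a log2 difference of -9.23 ± 0.63 (SE). APOA4 was at 10.7 and 6.18 TPM against 1878 and 1943 TPM. Matrix genes followed in part, with 5 of 22 lower, among them DCN, the proteoglycan decorin, at 10.7 and 5.26 TPM against 2165 and 2287 TPM, a log2 difference of -8.02 ± 0.31 (SE). EED-/- H1 resembled EZH2-/-/EZH1-/- H1 here, with AHSG at 1.08 and 12.4 TPM, APOA4 at 23.0 and 51.3 TPM and DCN at 30.9 and 26.3 TPM. The median log2 difference of the liver and yolk sac list from EED-/- H1 was -0.57.

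The genes furthest above SUZ12-/- H1 included cardiac, skeletal muscle and cystatin genes. On the lists, NES, TUBB3, LMO2, GDNF, FOXC2, BMP6, FST, TGFB2, CDH2, CDKN2B and the smooth muscle genes ACTA2, TAGLN and CNN1 were also higher. These lists were split, however. Of the 18 cardiac genes, 2 were higher and 3 lower, the lower ones being HAND1, HAND2 and TBX20. HAND2 was at 29.0 and 15.4 TPM in EZH2-/-/EZH1-/- H1 against 167 and 170 TPM in SUZ12-/- H1. Of the 12 smooth muscle genes, 3 were higher and 1, DES, was lower. NPPB was at 634 and 742 TPM in EZH2-/-/EZH1-/- H1 against 16.8 and 14.4 TPM in SUZ12-/- H1, a log2 difference of 5.37 ± 0.48 (SE), and MYL7 was at 371 and 579 TPM against 14.5 and 9.46 TPM. Skeletal actin ACTA1, at 78.4 and 323 TPM against 4.32 and 3.67 TPM, and the cystatin CST1, at 8377 and 5630 TPM against 274 and 300.4 TPM, were also higher. None of the 39 HOX genes, of which 36 were tested, met these thresholds against EED-/- or SUZ12-/- H1. Over all tested genes the shares higher and lower were 0.0314% and 0.0576% against EED-/- H1 and 1.14% and 3.32% against SUZ12-/- H1. With shares this small, the lack of calls does not set the HOX genes apart or show equal levels. Without EZH2-/-/EZH1-/- H1 sample 1 there were 393 higher and 1275 lower genes, without SUZ12-/- H1 sample 1 there were 66 and 352, and without SUZ12-/- H1 sample 2 there were 65 and 367.

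**Figure D4:**
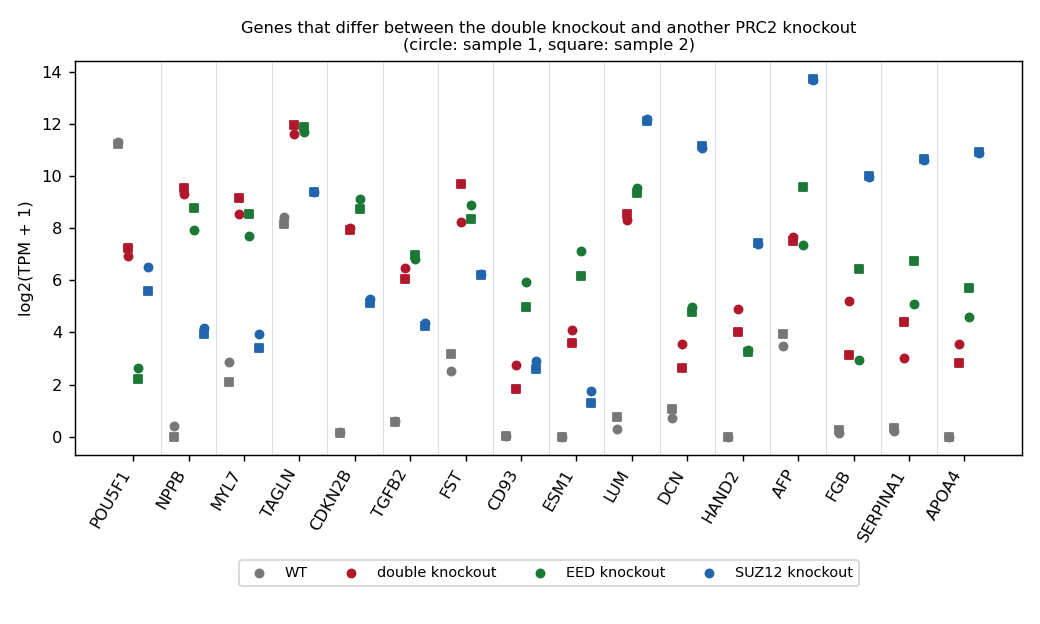
Log2(TPM + 1) (y axis) of 16 genes (x axis) in WT H1, EZH2-/-/EZH1-/- H1, EED-/- H1 and SUZ12-/- H1, with a circle for sample 1 and a square for sample 2 of each line. POU5F1 lies above EED-/- H1 in both EZH2-/-/EZH1-/- H1 samples, and AFP, FGB, SERPINA1, APOA4, DCN and LUM are highest in SUZ12-/- H1.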

How the data were processed

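RNA-seq of H1 hESCs was used as deposited. The authors prepared TruSeq libraries from Trizol-extracted RNA, mapped reads with Bowtie2 to the mRNA reference of GRCh38 and quantified genes with RSEM, and deposited TPM for each sample. Whether the counting used strand is not given in the sources used here, so overlapping, antisense and readthrough genes cannot be told apart. The study's methods describe a test on counts. Since the deposited values were TPM, no count test was run, and limma 3.58.1 in R 4.3.3 was applied to log2(TPM + 1) with lmFit, contrasts.fit and eBayes (trend and robust), with the thresholds of the study's methods, which were 1% for the FDR and 3 for the fold change. The main comparison was fitted to the 4 samples of EZH2-/-/EZH1-/- H1 and WT H1, and the direct contrasts to 12 samples of 6 lines. Depth is unknown from TPM. On simulated data with 2 samples against 2 and 16642 genes, of which 200 were changed, the test recovered 93.8% of genes changed by 2 on the log2 scale and 100% of those changed by 4, with 0 false calls. The simulation gave all 4 samples of a gene the same normal spread and changed only genes well expressed in WT H1. The real spread was wider in EZH2-/-/EZH1-/- H1 and moved with length, so these rates do not measure the errors of the real calls.

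Samples were grouped by the genotype in the labels, and replicate numbers follow the order of accession and were not taken to pair samples. Genes named were the members of 26 lists, the 15 largest rises and 10 largest falls, the 8 genes that differed most between the double-knockout samples in each direction, and the 5 genes that differed most in each direction in the direct contrasts. The values of some list members are not reported here. The comparison, the lists and the rules were chosen with earlier results of these data known. Coordinates and exon lengths are from GENCODE 44 on GRCh38 and promoters from RefSeq on GRCh38.p14, with the share of CpG-rich promoters also taken over genes with a window near the RefSeq gene start, a choice made after seeing the data. Alternatives were a pseudocount of 0.1, other filters on low values, other samples in the fit, median-ratio rescaling, eBayes without options, a replicate block, an FDR of 5% and leaving out each sample. Python 3.11.15 was used with pandas 2.3.3.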

Additional observations from a re-analysis of the deposited data

Results flagged for a closer look

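Limma contrasts of the lines themselves gave genes that differed between EZH2-/-/EZH1-/- H1 and EED-/- or SUZ12-/- H1, most of them not particular to EZH2-/-/EZH1-/- H1 among the genes named here. Against EED-/- H1, 6 genes were higher and 11 lower. On the log2(TPM + 1) scale, the largest differences were 4.67 in POU5F1, 3.77 in SST, the somatostatin gene, 3.37 in AURKC, a meiotic aurora kinase, 2.85 in BEX5 and 2.00 in IRX6. The lower genes were led by LIMS3 at -3.92, which has near-identical copies so that its reads are uncertain, CD93 at -3.18, the lymphatic receptor LYVE1 at -2.86, ESM1 at -2.81 and MSMP at -2.60. Of these 10 genes, all but POU5F1 were close to the threshold, with adjusted p-values between 0.00555 and 0.00972 in limma. In both EZH2-/-/EZH1-/- H1 samples SST was at 33.0 and 27.1 TPM, AURKC at 18.3 and 20.9 TPM and BEX5 at 22.3 and 46.0 TPM, and AURKC and BEX5 lay above both WT H1 samples (15.1 and 8.99 TPM, and 16.3 and 14.8 TPM). SUZ12-/- H1 was also high in POU5F1 (91.0 and 47.0 TPM) and SST (95.3 and 98.3 TPM) but low in BEX5 (1.59 and 1.55 TPM) and IRX6 (0.28 and 0.45 TPM). It was also low in CD93 (6.44 and 5.10 TPM), LYVE1, ESM1 and MSMP, with AURKC and LIMS3 between the other lines.

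Against SUZ12-/- H1, 217 genes were higher and 635 lower. The largest log2 differences were 5.37 in NPPB, 5.19 in MYL7, 5.01 in ACTA1, 4.58 in CST1 and 4.57 in CST4, and in the other direction -9.23 in AHSG, -8.02 in DCN, -7.70 in APOA4, -7.41 in MGP, an inhibitor of calcification, and -7.20 in APOC3. CST1 and CST4 are close paralogs, and the split of reads between them is uncertain. ACTA1 was at 78.4 TPM in sample 1 and 323 TPM in sample 2 of EZH2-/-/EZH1-/- H1. In each of the genes named in this contrast, EED-/- H1 lay nearer to EZH2-/-/EZH1-/- H1 than to SUZ12-/- H1 on the log2(TPM + 1) scale. For example, EED-/- H1 had NPPB at 247 and 438 TPM and MGP at 6.79 and 4.21 TPM.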

How the results depend on the processing

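The rises and falls against WT H1 numbered 3573 and 2214 at an FDR of 5% without a fold cutoff, 415 and 145 without a filter, 646 and 375 among genes at 1 TPM or more in each of the 4 samples, 2220 and 1081 with 12 samples in the fit and 2266 and 1096 with a replicate block. Falls numbered 930 after median-ratio rescaling. Leaving out 1 sample gave 372 to 1712 rises and 108 to 1255 falls. Alternatives chosen after seeing the data gave 1203 falls after levelling by length, and 117 rises and 26 falls with limma's treat, which tests against a fold of 3. In the contrast with EED-/- H1, higher and lower genes numbered 44 and 108 at an FDR of 5%, 0 and 0 with only the 4 samples of both lines, and 12 and 20 after levelling by length. There were 2 lower genes with a pseudocount of 0.1 and 5 with a replicate block. Leaving out 1 sample gave 1 to 106 higher and 0 to 632 lower genes. In the contrast with SUZ12-/- H1, the numbers were 1123 and 1605 at an FDR of 5%, 2 and 22 with only the 4 samples, 405 lower genes with a pseudocount of 0.1, and 65 to 393 higher and 352 to 1275 lower genes when 1 sample was left out (leaving out EED-/- or SUZ12-/- H1 samples was also chosen after seeing the data). The causes were not tested. A fit without a sample differs both in the number of samples and in which samples it holds, and these cannot be told apart.

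Of 121 genes whose difference from WT H1 was followed, 0 changed direction under any alternative. In genes that had been called, both EZH2-/-/EZH1-/- H1 samples lay on the same side of both WT H1 samples. Leaving out a sample or changing the pseudocount, the filter or the limma options could not reverse these, so the 0 does not show that they are robust. Calls were lost for 35 genes without WT H1 sample 1 and for 34 without sample 2, with ACVRL1, APOA4, BMI1, BMPR1B, BMPR2, C17orf96, CBX8, CNN1, GRHL3, HNF4A, HOXA13, HOXC9, HOXD1, HPRT1, JARID2, LHX2, LMOD1, MYL9, NOG, PCNA, POU3F1, SERPINA1, SMAD3, SOX3, T, TAL1, TPM1, YAF2 and ZIC2 lost in both. Calls were lost for 8 and 6 without EZH2-/-/EZH1-/- H1 sample 1 and sample 2, for 41 without a filter and for 70 with treat. The deviations of samples with the same number correlated at 0.06 over genes. The sources used here do not say whether samples with the same number were prepared together. With 2 samples a group and no read counts, a difference that missed the threshold is not shown to be absent.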
